A study of Mus musculus with 4 samples.

Results

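Runs are stretches of mouse autosome in which many neighbouring CpGs were listed together by an assay for bisulfite-convertible cytosine after enzymatic methylation. They were found in the list of the first of 2 whole-genome libraries by joining listed CpGs, sorted by position on chromosomes 1 to 19, whenever 2 consecutive starts lay 100 bp or less apart, and by keeping stretches of at least 5. This gave 5635 runs with 42335 CpGs, which were 13.0% of the 326228 autosomal CpGs of that list and came from 331875 CpGs in all. The positions in the first library chose the runs, so their number, spacing and levels are given as a description. A listed CpG need not show conversion, as 23.5% of run CpGs had a level of 0 after background subtraction. The other libraries took no part in the choice. Isolated CpGs, those with no other listed CpG within 5 kb, numbered 44087 and are given beside the runs.

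All samples were genomic DNA of E14, a mouse embryonic stem cell line. The groups were cells with an shRNA against Tdg (1 library) and cells with a control shRNA (1 library), both analysed by reduced-representation methylation-assisted bisulfite sequencing (RRMAB-Seq) of MspI-cut DNA, and wild-type cells (2 libraries) analysed by the whole-genome form of the assay (MAB-Seq). All DNA was treated with the CpG methyltransferase M.SssI before bisulfite conversion. Whether the libraries came from separate cultures is not given in the labels, and the extent of the Tdg depletion was not analysed here. The second whole-genome library listed 114852 cytosines on the autosomes with a p-value each, the Tdg shRNA library 8404 and the control shRNA library 12472 with a level each. With 1 library behind each list no test between groups was made, and all intervals are 95% intervals that cover counting error only. They count CpGs and sites as independent. CpGs of a run can share reads and PCR copies, so intervals over run CpGs can be too narrow.

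TET enzymes oxidise 5-methylcytosine stepwise to 5-hydroxymethylcytosine, 5-formylcytosine (5fC) and 5-carboxylcytosine (5caC), and the DNA glycosylase TDG removes the last pair of these so that an unmodified cytosine can be put back. M.SssI methylates unmodified CpGs, and methylated and hydroxymethylated cytosines resist bisulfite. A CpG cytosine that is still read as thymine may have carried 5fC or 5caC or may have escaped the enzyme, and a thymine in the genome of the line or a misplaced read gives the same letter. These sources cannot be told apart in the level, which is the percentage of converted reads after the authors' background subtraction.

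Part of the runs were simple repeats of a CpG-containing unit. The first library gave the 5 bases centred on each listed cytosine, and in 198 runs these overlapped without a gap, so that the run could be read from end to end. Overlapping bases never conflicted. The following mm9 sequences, plus strand, come from these fully readable runs, 3.51% of all runs, and are shown because they carry the repeat units and the strand pattern described below, with the listed CpGs in capitals.
TGCG repeat, chr15:36503320-36503374: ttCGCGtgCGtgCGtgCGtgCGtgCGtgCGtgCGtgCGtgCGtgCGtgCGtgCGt
TGCG repeat, chr13:40713377-40713429: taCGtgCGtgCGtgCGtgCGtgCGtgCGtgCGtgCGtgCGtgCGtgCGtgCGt
CACG repeat, chr12:92808530-92808576: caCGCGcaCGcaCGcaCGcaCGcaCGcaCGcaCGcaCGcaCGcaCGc
CACG repeat, chr14:118574591-118574647: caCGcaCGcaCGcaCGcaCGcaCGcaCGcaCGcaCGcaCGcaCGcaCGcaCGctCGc
CGCG repeat, chr4:33762406-33762444: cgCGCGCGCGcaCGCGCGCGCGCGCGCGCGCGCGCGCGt
CGCG repeat, chr3:49327064-49327100: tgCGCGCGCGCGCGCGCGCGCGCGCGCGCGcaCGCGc
ACG repeat, chr1:41106660-41106715: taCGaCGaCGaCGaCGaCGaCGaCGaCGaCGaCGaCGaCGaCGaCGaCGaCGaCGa
Highest median level, chr5:147936989-147937017: tgCGCGCGcaCGCGCGCGcaCGCGCGCGc

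Most runs were short. A run held a median of 6 listed CpGs (quartiles 5 and 8, highest 73) over a median of 155 bp (quartiles 94 and 226 bp, longest 1484 bp). Runs of exactly 5 made up 36.8%, while 943 runs held at least 10 CpGs, 108 at least 20 and 14 at least 40. Of all runs, 60.02% were no longer than 180 bp, the lower bound of the fragments recovered for sequencing, so that their CpGs could lie on a single fragment. At the other end, 352 runs were longer than 350 bp, the upper bound of the fragments. Among the short runs, 349 were 30 bp or shorter.

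Just outside the threshold lay 3951 groups of 4 CpGs and just inside it 2076 runs of 5. Runs of 5 and groups of 4 had median levels of 11.6% and 11.3%, and 23.3% and 24.0% of their CpGs were at 0. Their median within-stretch SD was 9.73 and 9.15 percentage points. A site of the second whole-genome library lay inside 42.2% of runs of 5 and 34.8% of groups of 4. The values on both sides of the threshold were thus close together, apart from the support in the second library, where a longer stretch also has more room for a site.

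Short and even steps set the runs apart in their layout. The median distance to the next listed CpG was 16 bp in runs and 31 bp in groups of 2 to 4, and both follow in part from the way runs were built. A step of exactly 2 bp accounted for 11.4% of 36700 neighbour pairs in runs and 2.86% of 61630 in the short groups. A step of 4 bp accounted for 10.3% and 3.47%, whereas the odd step of 3 bp between them accounted for 2.23% and 1.79%. Steps of 2 and 4 bp are the periods of the CGCG and TGCG repeats printed above. Even steps made up 65.3% of the pairs in runs and 53.8% in short groups, and among steps over 20 bp in runs they made up 52.9%. In 865 runs (15.4%) at least 50% of the steps were 2 or 4 bp, and these are called stepped runs.

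**Figure D1:**
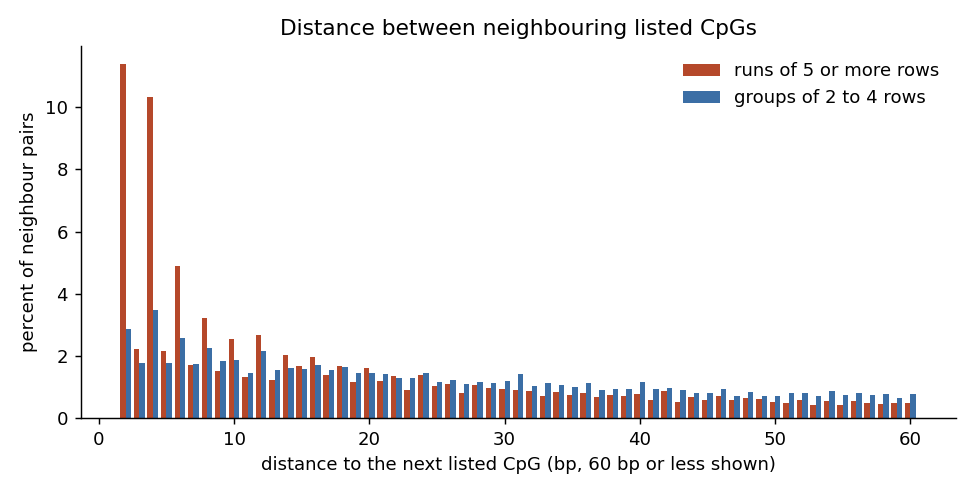
Percent of neighbour pairs (vertical axis) at each distance in bp from a listed CpG to the next (horizontal axis, up to 60 bp) in runs and in groups of 2 to 4 listed CpGs of the first whole-genome library. Steps of 2 and 4 bp stand out in runs at 11.4% and 10.3% of pairs, against 2.86% and 3.47% in the short groups.

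Stepped runs were short and high. They held a median of 7 CpGs over 40 bp, and their CpGs had a median level of 26.4%. In the 3289 runs with no step of 2 or 4 bp the median length was 178 bp and the median level 10.8%, and in the 1481 runs with some such steps 157 bp and 10.9%. The share of CpGs at 0 was 21.1% in stepped runs, 24.8% in runs without such steps and 22.8% in runs with some. Of the CpGs of stepped runs, 25.5% (24.6% to 26.5%) were listed in the second library on the plus strand at the same base. In runs without such steps it was 7.47% (7.12% to 7.83%). The classes were formed after the spacing had been seen, and the short length of stepped runs follows in part from their definition.

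Repeat contexts were more frequent among run CpGs. TGCGT, the 5 bases centred on the C of the TGCG repeat, took up 9.89% of run CpGs and 3.13% of isolated CpGs. CGCGC, the context inside a CG repeat, took up 9.03% and 0.447%, a ratio of 20.2. For CACGC the shares were 6.55% and 2.43%. CCCGG, which contains the MspI site, was at 3.85% and 2.37%, and all CCGG sites together at 10.6% and 8.75%. G or C stood on both sides of the CpG at 48.8% of run CpGs and 26.2% of isolated CpGs, and A or T on both sides at 7.44% and 23.3%. Of the 64 contexts, 19 had a larger share in runs than among isolated CpGs. These ratios set listed CpGs against listed CpGs, without the frequency of the contexts in mm9. They also follow in part from the definitions. CGCGC holds another CpG 2 bp away, which favours a run when it is listed and bars the CpG from being isolated. The share with G or C on both sides includes this context.

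Levels in runs spread further in both directions than those of isolated CpGs. The median was 12.2% in runs (quartiles 1.75% and 25.8%) and 11.4% at isolated CpGs (7.01% and 18.7%). More run CpGs were at 0, 23.5% (23.1% to 23.9%) against 16.4% (16.0% to 16.7%). More were also at 50% or above, 11.05% (10.8% to 11.4%) against 5.47% (5.26% to 5.68%). At exactly 100% the run share was the lower, with 1.19% (1.08% to 1.29%) of run CpGs and 2.09% (1.96% to 2.23%) of isolated CpGs. The median of levels above 0 was 16.9% in runs and 13.2% at isolated CpGs.

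Neighbours within a run had similar levels, although the median SD within a run was no smaller than that of consecutive isolated CpGs. From a CpG to the next in the same run the level differed by a median of 6.49 points (6.39 to 6.60, n = 36700), against 9.48 points (9.38 to 9.59, n = 44068) from an isolated CpG to the next isolated CpG. Spearman's rho between neighbours was 0.51 in runs and 0.02 at isolated CpGs, given as a description because neighbours in a run can share reads and PCR copies. The difference between neighbours widened with distance. It was 4.43 points at 2 bp, 5.36 points at 6 to 10 bp, 7.37 points at 21 to 40 bp and 8.35 points at 61 to 100 bp. Differences between runs held 52.9% of the variance of levels, and differences between CpGs of the same run the remainder.

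The SD within a run had a median of 10.3 points (10.1 to 10.5, n = 5635), with quartiles of 6.13 and 16.7. For runs of 5 it was 9.73 points, and for 5 consecutive isolated CpGs 9.71 points (9.54 to 9.85, n = 8808). The quartiles were 5.42 and 16.4 for runs of 5, both lower than the 6.53 and 17.5 for the isolated CpGs. Over all CpGs of each kind the SD of levels was 23.2 points in runs and 18.8 at isolated CpGs. The levels of all CpGs of a run lay within 10 points of each other in 718 runs (12.7%). A level of 0 tended to be shared. After a CpG at 0 the next CpG of the run was at 0 in 57.7% of cases, and after a CpG above 0 in 12.8%. Among isolated CpGs these shares were 17.2% and 16.2%. All CpGs were at 0 in 190 runs and none in 2449.

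The 5 runs with the most CpGs showed how far whole runs differed from each other. The longest list lay on chromosome 19, chr19:53423266-53424015, with 73 CpGs, a median level of 37.0% and an SD of 21.03 points. On chromosome 2, chr2:173595294-173596023 held 59 CpGs with a median of 37.9%, and on chromosome 17, chr17:5949355-5949758 held 58 with a median of 54.8%. The run of 55 CpGs on chromosome 4, chr4:53178389-53178708, was at 0 throughout. The run of 54 CpGs on chromosome 1, chr1:187282104-187282603, had a median of 96.0%. In the second library the numbers of these CpGs listed on the plus strand were 13, 9, 7, 0 and 13, in the order in which the runs were named. On the minus strand 30 were listed on chromosome 4 and none in the other 4 runs.

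**Figure D2:**
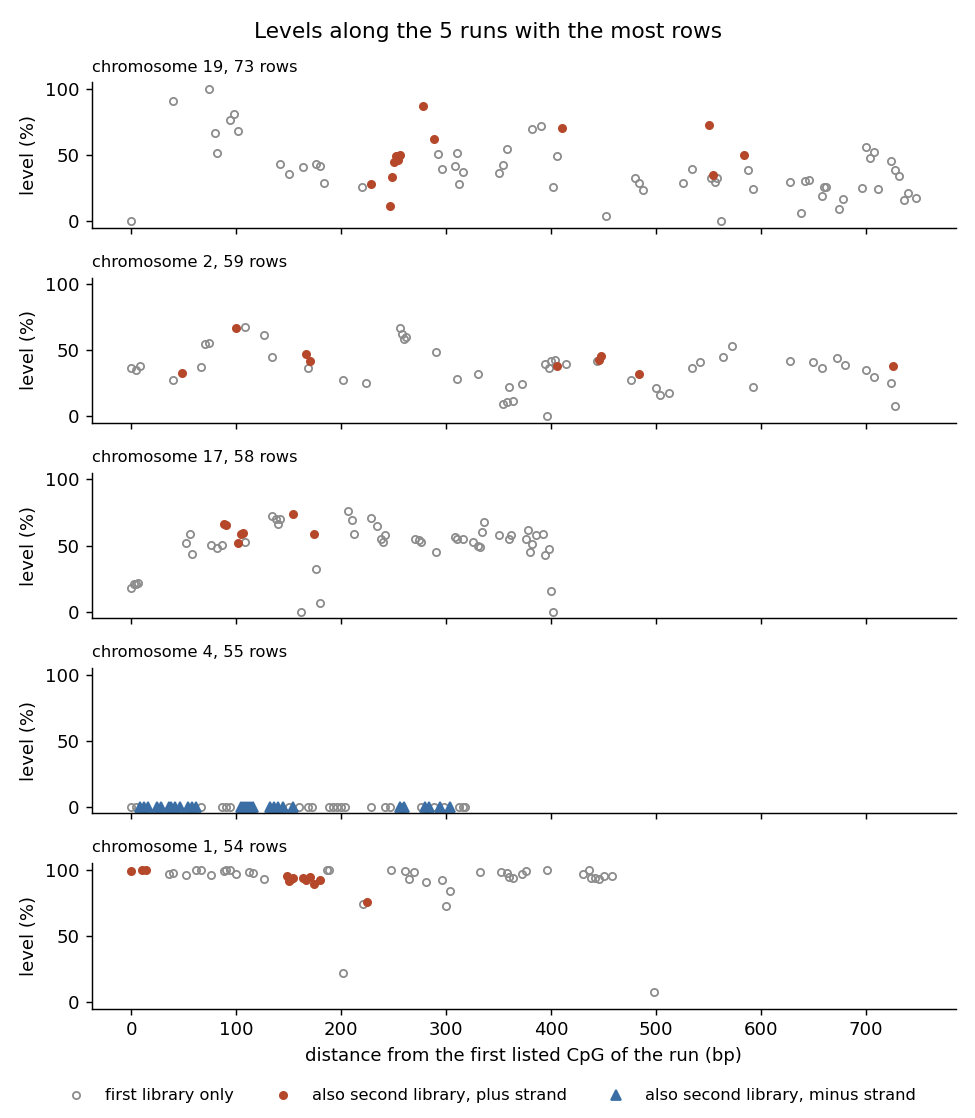
Level in percent of converted reads (vertical axis) against the distance in bp from the first listed CpG (horizontal axis) for the 5 runs with the most listed CpGs, with open circles for CpGs of the first library only, filled circles for those also listed by the second on the plus strand and triangles on the minus strand. The chromosome 4 run lies at 0 throughout with 30 minus-strand listings, and the chromosome 1 run lies mostly above 90, with a median of 96.0%.

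At the upper end, 355 runs had a median level of 50% or more and 20 a median of 100%. They were short, with a median length of 54 bp for medians of 50% or more, against 193 bp for runs with a median between 0 and 10%. The run on chromosome 5 printed above, among the 20 tied at a median of 100%, held 11 CpGs between 98.6% and 100%. No site of the second library lay inside it. On chromosome 19, 14 CpGs at chr19:38193973-38194026 had a median of 100% and a lowest level of 44.9%. Of these, 11 were listed in the second library, all on the minus strand. The ACG repeat on chromosome 1 held 18 CpGs with a median of 69.5%, and none of them was listed in the second library.

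More than 50% of the runs held a site of the second whole-genome library. It was 2987 runs, or 53.0% (51.7% to 54.3%). For a stretch of the same length as the median run, 155 bp, centred on each isolated CpG, the share was 7.46% (7.22% to 7.71%), and over all autosomal CpGs of the first list it was 18.9%. A run offers more CpGs than such a window, so the shares are not measured on equal numbers of CpGs. A CpG of the run itself was listed by the second library in 2353 runs (41.8%). At least 5 CpGs were listed in 382 runs (6.78%), which held 50.6% of the 6499 run CpGs shared with the second library. All CpGs were shared in 89 runs.

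CpG by CpG, run members were listed again more often than isolated CpGs. On the plus strand at the same base, 10.7% (10.4% to 11.02%) of run CpGs and 5.03% (4.83% to 5.24%) of isolated CpGs were listed in the second library, a difference of 5.69 points (Newcombe interval 5.33 to 6.05). The background over all autosomal CpGs of the first list was 6.02%. With the first CpG of each run alone, which takes neighbours on the same reads out of the count, the difference was 5.49 points (4.69 to 6.34). The run share was higher on 19 of 19 chromosomes. The difference was 2.23 points without the stepped runs and 2.38 points without the 830 windows of 10 kb with 10 or more second-library sites, windows that are themselves picked by listings in that library. Recovered depth at the shared CpGs was a median of 18 reads in runs (quartiles 12 and 29) and 14 at isolated CpGs (11 and 19). Reads could not be recovered for 50.1% and 16.1% of them, those with the smallest p-values. The part of depth in the difference was not tested.

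The gap between run and isolated CpGs was widest at levels of 50% to 90%. There 31.3% (29.8% to 32.9%) of 3509 run CpGs and 6.42% (5.14% to 7.91%) of 1277 isolated CpGs were listed in the second library. From 30% to 50% the shares were 18.8% and 5.19%. From 10% to 20% they were 9.24% (8.68% to 9.82%) and 5.83% (5.47% to 6.20%), and below 10% but above 0 they were 7.05% and 4.81%. Among isolated CpGs the share stayed between 4.81% and 6.42% from just above 0 up to 90%, and reached 18.6% from 90%. Among run CpGs it climbed with every class up to 90%. The level classes include the stepped runs, whose CpGs had a median level of 26.4% and were listed in 25.5% of cases. Their part in the climb was not tested. Whole runs showed no such climb in the share that held a second-library site on either strand. It was 59.5% for runs with a median level of 0 and 57.1% for medians above 0 and below 10%. For medians from 10% to 20% it was 51.8%, from 20% to 50% 39.9%, and from 50% 59.2%.

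**Figure D3:**
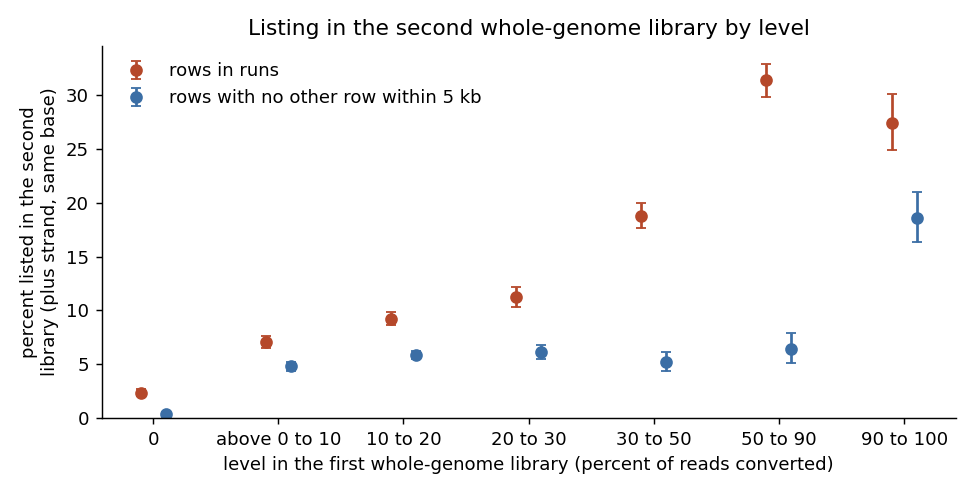
Percent of first-library CpGs that the second whole-genome library listed at the same plus-strand base (vertical axis, with exact 95% intervals) by level class in the first library (horizontal axis), for run CpGs and for isolated CpGs. The run share exceeds the isolated share in every class, by most at levels of 50 to 90, with 31.3% and 6.42%.

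The strand on which the second library listed a run CpG went with its level in the first library, which gave the plus strand only. Run CpGs at 0 were listed on the minus strand of the same CpG in 14.9% (14.2% to 15.6%) of cases and on the plus strand in 2.37%. Run CpGs above 0 were listed on the minus strand in 2.23% and on the plus strand in 13.3% (12.9% to 13.7%). At isolated CpGs the corresponding values were 4.21% and 0.401% at a level of 0, and 0.263% and 5.94% above 0. Over all autosomal CpGs of the list, 2.18% were listed on the minus strand.

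Whole runs showed the same division. Of the 382 runs with at least 5 CpGs shared with the second library, 235 had at least 90% of these listings on the plus strand, 96 had at most 10% there, and 51 had both. In the plus-strand runs the median share of CpGs at 0 was 0% and the median of the run medians 42.9%. In the minus-strand runs 89.4% of CpGs were at 0 at the median, and the median of run medians was 0%. The division had exceptions. In 10 of the 96 minus-strand runs fewer than 50% of CpGs were at 0, among them the chromosome 19 run with a median of 100%, while 0 of the 235 plus-strand runs had 50% or more at 0.

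**Figure D4:**
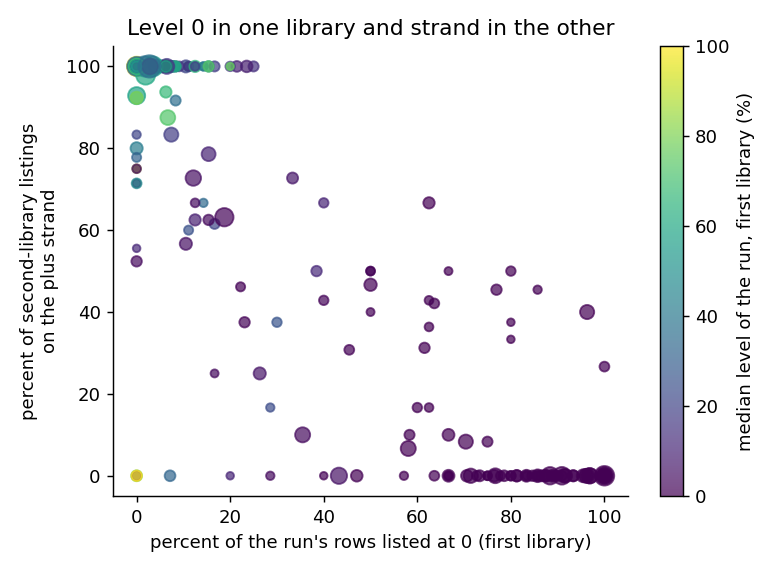
Each point is 1 of the 382 runs with at least 5 CpGs also listed in the second library, with the percent of its CpGs listed at 0 in the first library on the horizontal axis, the percent of its second-library listings on the plus strand on the vertical axis, colour for the median level and size for the number of CpGs. Points gather at the upper left (235 runs with at least 90% on the plus strand) and the lower right (96 runs with at most 10%).

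In the few TGCG and CACG repeats that could be read throughout, the listed strand was the one that reads TGCG. The fully readable runs outside chromosome 18, 193 in number, were sorted by their unit after they had been seen. In 14 TGCG runs the 128 CpGs had a median level of 59.7%, with 0.781% at 0, and the second library listed 48 of their plus-strand cytosines and 0 of their minus-strand cytosines. In 15 CACG runs the 114 CpGs had a median level of 0% with 75.4% at 0, and the second library listed 0 plus-strand and 30 minus-strand cytosines. Read on the minus strand, a CACG repeat is a TGCG repeat. In 107 CGCG runs, which read the same on both strands, the 820 CpGs had a median of 39.1%, with 14.0% at 0, with 259 plus-strand and 44 minus-strand listings. The 56 runs of mixed units had 92 plus-strand and 51 minus-strand listings among 419 CpGs. Single contexts in all runs had the same order. TGCGT was at 0 in 3.797% of run CpGs and CACGC in 68.2%, and the second library listed the plus strand of 23.3% and 2.74% of them, and the minus strand of 0.334% and 23.8%. The order was the same at isolated CpGs, so it was not particular to runs. There TGCGT was at 0 in 9.43% and CACGC in 37.4%. Plus-strand listings of isolated CpGs were 10.9% and 2.61%, and minus-strand listings 0.218% and 5.69%.

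The printed repeats gave examples and an exception. The TGCG runs on chromosomes 15 and 13 had levels of 37.9% to 100% and 15.4% to 31.2%, with 11 of 14 and 10 of 13 CpGs listed on the plus strand. The CACG run on chromosome 12 was at 0 in all 12 CpGs, and the second library listed none of them. The CACG run on chromosome 14 had a median level of 32.7% with a single CpG at 0, yet 6 of its 14 CpGs were listed in the second library, all on the minus strand. In the CGCG runs on chromosomes 4 and 3, 17 of 17 and 15 of 16 CpGs were listed on the plus strand, with median levels of 65.7% and 18.97%.

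The run with the most second-library sites lay on chromosome 12, chr12:3357178-3357622. It held 52 CpGs with a median level of 59.9% (quartiles 54.3% and 73.2%), and 46 of them were listed in the second library on the plus strand, and 1 on the minus strand. Next came chr17:39981289-39982682, whose 48 CpGs had low levels, at most 6.70%, and which held 24 plus-strand and 16 minus-strand sites of the second library, 40 in all. On chromosome 5, chr5:66857607-66857764 held 27 CpGs of which 26 were at 0, and 12 plus-strand and 18 minus-strand sites of the second library. Many second-library sites therefore occurred at high levels, at low levels and at 0.

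Chromosome 1 stood apart from the other autosomes. It held 577 runs, the most of any chromosome, and 15.8% of its listed CpGs were in runs, against 10.8% to 14.6% on chromosomes 2 to 19. A second-library site lay inside 30.5% (26.8% to 34.4%) of its runs, while on the other chromosomes the share ran from 42.6% (chromosome 10) to 67.5% (chromosome 8). Its runs had fewer CpGs at 0, 13.4% against 24.7% on chromosomes 2 to 19, and a higher median of run medians, 15.3% against 11.2%. The first library listed 4.16 CpGs on chromosome 1 for each site of the second, and 2.49 to 3.10 on each of the others. Runs starting before 100 Mb had a second-library site in 26.9% of cases and those beyond in 35.9%. Without chromosome 1 the share of runs with a second-library site was 55.6%. What sets the chromosome apart in this list was not tested.

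**Figure D5:**
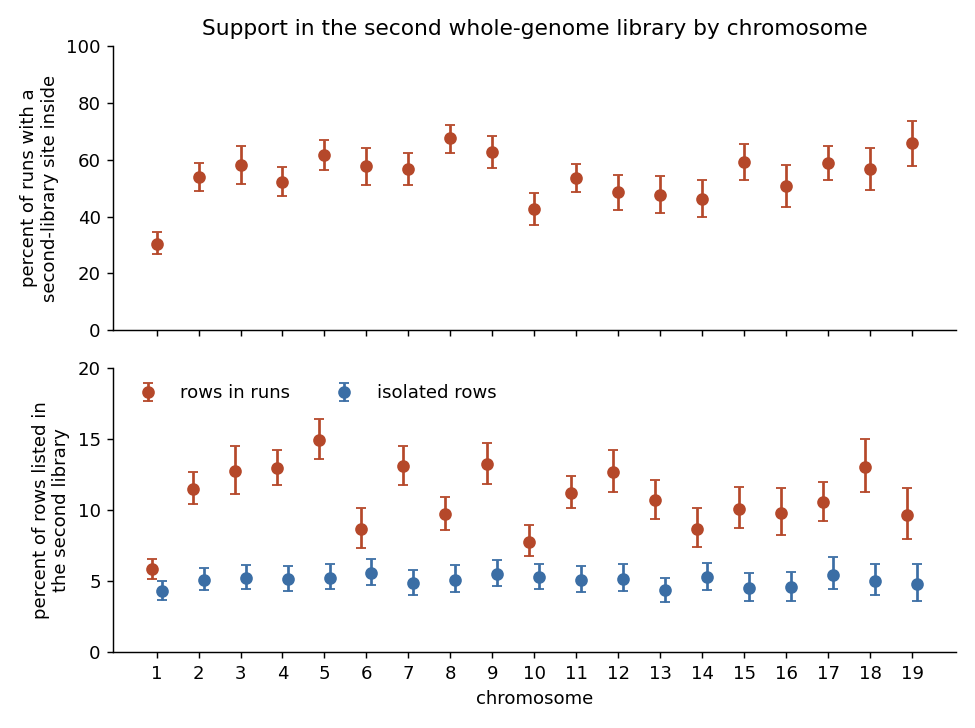
Percent of runs with a second-library site inside (upper panel) and percent of run and isolated CpGs listed in the second library on the plus strand (lower panel) for chromosomes 1 to 19, with exact 95% intervals. Chromosome 1 is lowest in the upper panel at 30.5%, and run CpGs lie above isolated CpGs on all 19 chromosomes.

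A site of a reduced-representation library lay inside 682 runs (12.1%). For the Tdg shRNA library it was 367 runs or 6.51% (5.88% to 7.19%), and for the control shRNA library 469 runs or 8.32% (7.61% to 9.07%). Windows of 155 bp on isolated CpGs held a Tdg shRNA site in 0.184% and a control shRNA site in 0.333% of cases, and windows on all autosomal CpGs in 1.62% and 2.16%. These libraries can hold only sites on MspI fragments, and the number of runs on such fragments was not analysed here. Stepped runs almost never held a site, 0.231% with Tdg shRNA and 0.462% with control shRNA, against 8.18% and 10.3% of runs with no step of 2 or 4 bp. Both libraries had a site in 154 runs, Tdg shRNA alone in 213 and control shRNA alone in 315. Of the runs with a site of either, 500 also held a site of the second whole-genome library.

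Counted by sites, runs held 717 Tdg shRNA sites and 654 control shRNA sites, a ratio of 1.10 (0.985 to 1.22). This rested on windows of 10 kb rich in second-library sites, where the counts were 377 and 171. In runs outside them they were 340 and 483, a ratio of 0.704 (0.611 to 0.810). The sites in runs were 8.53% of all autosomal sites with Tdg shRNA, against 5.24% with control shRNA. Outside the rich windows these shares were 4.54% (4.08% to 5.04%) and 4.10% (3.75% to 4.47%), with intervals that overlapped. The ratio of Tdg shRNA to control shRNA sites over the whole autosomes was 0.674, and outside the rich windows 0.635. The 5 runs with the most sites of these libraries lay on chromosomes 2 and 9. The first, chr2:98506763-98507483, held 31 Tdg shRNA and 12 control shRNA sites, and the second, chr9:35112827-35113168, held 22 and 6. Both had low levels in the first library, with medians of 4.43% and 3.09%. With 1 library per group these counts have no replicate check.

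Levels at the CpGs shared with the reduced-representation libraries were compared within runs, with the isolated CpGs listed in both shRNA libraries beside them. The 101 run CpGs listed in both shRNA libraries had a median level of 10.7% in the Tdg shRNA library, against 15.7% in the control shRNA library. The level was lower with Tdg shRNA at 60 CpGs, higher at 28 and equal at 13, with a median difference of -1.67 points (-3.58 to 0). This interval counts the CpGs as independent, although CpGs of a run can share reads, and it leaves out variation between libraries. Neither shRNA group had a replicate library, so the difference is a description and not a test between the groups. Only 16 isolated CpGs were listed by both shRNA libraries. Of these, 8 were lower in the Tdg shRNA library, 3 higher and 5 equal, and the median difference was -1.04 points (-3.98 to 0). In the Tdg shRNA library their median level was 96.1%, and in the control shRNA library 96.8%. The lean towards lower levels in the Tdg shRNA library was thus not particular to runs. The 336 run CpGs listed with Tdg shRNA had a median level of 11.1% there and 4.59% in the first whole-genome library, and the 242 listed with control shRNA 10.7% and 6.13%. Spearman's rho across these CpGs, which share runs, was 0.34 and 0.24. The strand of a position in these libraries is unknown, so a level may belong to the other strand of the CpG.

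Part of the runs lay at gene starts. Neither a genome nor an annotation of mm9 was used, so runs were placed by content. A run was matched to a promoter sequence of RefSeq (build GRCm38.p6, 250 bases before to 50 after a gene's start) when at least 5 of its CpGs kept their 5-base context and their spacing inside it and no CpG that fell inside differed. After the removal of runs that matched several places or another chromosome, 352 runs (6.25%) matched 409 promoter sequences of 384 genes, which is 1.30% of the 31396 sequences on 18 autosomes. Promoters of chromosome 18 were not analysed here. The matched promoters are rich in CpGs, with a median of 34 against 7 over all sequences, as the requirement of 5 matching CpGs favours. Between the first and the last matched CpG, 28.8% of the 7345 CpGs present were listed, so that most CpGs inside these runs were not in the list. Their coverage is unknown.

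Promoter-matched runs had low levels. Their CpGs had a median of 10.4%, with 29.8% at 0 and 2.10% at 50% or more, against 12.3%, 23.1% and 11.6% in the runs that matched none. A second-library site lay inside 69.0% (63.9% to 73.8%) of matched and 51.9% (50.6% to 53.3%) of the other runs, which were shorter, with medians of 187.5 and 153 bp. At the same base on the plus strand, however, 6.74% (5.80% to 7.78%) of CpGs in matched runs and 10.97% (10.7% to 11.3%) in the others were listed. None of the matched runs was stepped, against 16.4% of the others, and the requirement of 4 different contexts disfavours such runs. The unmatched runs that were not stepped had a median level of 10.9%, with 23.5% of CpGs at 0, 7.09% at 50% or more and 7.31% (7.02% to 7.60%) listed at the same base, so that the interval of this last share overlapped that of the matched runs. A second-library site lay inside 51.6% (50.1% to 53.0%) of them. Tdg shRNA sites lay inside 9.38% of matched and 6.32% of the other runs, and control shRNA sites inside 13.9% and 7.95%.

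By the number of matched CpGs, with 1 promoter for each run, the first were those of Ccl25, Yrdc, Tnfrsf11a, Pard6b and Mbd6. The promoter of 1110065P20Rik matched 11 CpGs of the run that matched 12 at Yrdc. The genes were picked after matching. Ccl25 encodes a chemokine that attracts T cell precursors, Yrdc an enzyme of transfer RNA modification, and Mbd6 a protein with a methyl-CpG-binding-type domain. Tnfrsf11a encodes RANK, a receptor needed for osteoclast formation, and Pard6b a cell polarity protein. Of these, the sequences of Ccl25, Yrdc and Mbd6 are shown, 5′ to 3′ on the gene's strand, to give the placing of listed CpGs (capitals) among unlisted ones.
Ccl25, GRCm38.p6, plus strand, chr8:4324960-4325259: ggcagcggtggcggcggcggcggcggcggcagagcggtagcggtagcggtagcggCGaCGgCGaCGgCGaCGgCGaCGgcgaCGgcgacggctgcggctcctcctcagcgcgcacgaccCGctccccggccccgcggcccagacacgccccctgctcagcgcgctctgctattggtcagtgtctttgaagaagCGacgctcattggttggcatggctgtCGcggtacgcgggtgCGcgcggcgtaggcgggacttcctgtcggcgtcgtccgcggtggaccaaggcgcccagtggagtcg
Yrdc, GRCm38.p6, plus strand, chr4:124850509-124850808: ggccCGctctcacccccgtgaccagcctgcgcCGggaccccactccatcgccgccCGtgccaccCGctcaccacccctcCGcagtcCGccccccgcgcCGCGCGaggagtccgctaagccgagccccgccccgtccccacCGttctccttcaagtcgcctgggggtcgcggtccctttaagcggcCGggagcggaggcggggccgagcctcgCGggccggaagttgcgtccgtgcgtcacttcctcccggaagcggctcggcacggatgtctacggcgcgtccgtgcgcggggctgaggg
Mbd6, GRCm38.p6, minus strand, chr10:127288832-127289131: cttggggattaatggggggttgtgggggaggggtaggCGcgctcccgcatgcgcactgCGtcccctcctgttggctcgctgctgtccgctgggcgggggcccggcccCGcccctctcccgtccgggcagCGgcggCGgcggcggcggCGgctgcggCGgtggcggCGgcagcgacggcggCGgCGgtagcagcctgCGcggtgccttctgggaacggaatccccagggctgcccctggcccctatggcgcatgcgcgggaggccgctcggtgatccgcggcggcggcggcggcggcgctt

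In the Ccl25 promoter all 13 CpGs of the run matched, among 30 CpGs present from the first to the last. The run, mm9 chr8:4325015-4325195, had a median level of 6.39% with 5 CpGs at 0 and a highest level of 100%, and 2 Tdg shRNA sites, 1 control shRNA site and 1 second-library site lay inside it. The Yrdc run, mm9 chr4:124527728-124527966, had 12 of its 15 CpGs at 0. The second library listed 7 sites inside it, and its listings at the run's own CpGs were 4, all on the minus strand. The Mbd6 run, mm9 chr10:126725990-126726150, had 7 of 11 CpGs at 0 and a highest level of 24.8%, and 2 of its CpGs were listed in the second library on the plus strand. In the Tnfrsf11a run 12 of 21 CpGs were at 0 and in the Pard6b run 8 of 11. In these runs, apart from that at Ccl25, most CpGs were at 0.

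Other matched runs differed in level. Ten1, which encodes a subunit of the telomere-binding CST complex, had a run of 10 CpGs with a median of 23.4% and none at 0. The run at Ccno, which encodes a cyclin-like protein needed for multiciliated cells, held 13 CpGs with a median of 18.04%. At Irf1, an interferon-regulated transcription factor gene, 10 CpGs had a median of 10.5%. At Daxx, which encodes a chaperone of the histone variant H3.3, 6 of 9 CpGs were at 0. The matched run with the most second-library sites was at Otulin, which encodes a deubiquitinase of linear ubiquitin chains, with 12 sites and a median level of 6.39% over 11 CpGs. The matched run with the most sites of the reduced-representation libraries was at Entr1, with 2 Tdg shRNA and 4 control shRNA sites.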

How the data were processed

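MAB-Seq or RRMAB-Seq lists of 4 libraries were used, each with 1 value per CpG cytosine. CASAVA 1.8, Bismark 0.10.1 and mm9 are named in the submitters' processing notes. The rule for calling a site is not given in the sources used here. For the first whole-genome library and both shRNA libraries the authors deposited a percent of converted reads. In the first, 100% of autosomal values equalled a fraction of 3 decimals less a background of 3.0%, rescaled to reach 100 (tolerance 1e-06). For the second whole-genome library the authors deposited a p-value of at most 0.00997 and no level. It equalled an upper binomial tail at a background of 3.8%, which gave back total and converted reads at 86.3% of autosomal sites (p above 1e-07, relative tolerance 1e-08). The depth of the remaining 3 libraries is unknown.

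Runs were built with Python 3.11.15 and pandas 2.3.3. Minus-strand sites were assigned to the plus-strand cytosine of their CpG, and a shRNA library position to the CpG whose C or G it is. A site is inside a run from its first C to its last G. Shares have exact Clopper-Pearson intervals, medians order-statistic intervals and differences of shares Newcombe intervals (scipy 1.17.1). Promoter matches also needed 22 covered bases, 4 different contexts, the same chromosome, a single place and positions within 10 Mb of each other in number. These limits removed 28 runs that matched several places or another chromosome and 2 too far away. The run finder, read recovery and matching were tested on simulated data. The runs named are the 5 highest by CpGs, by second-library sites, by median level and by shRNA library sites, of which the ones that matter are described. Promoters, repeat units, step classes, and the promoter and shRNA site shares without stepped runs or site-rich windows were added after values were seen. The members and lists were chosen with earlier results of these data known.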

Additional observations from a re-analysis of the deposited data

Results flagged for a closer look

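Sequences outside chromosomes 1 to 19, which the comparisons leave aside, also held runs by the same rule in the first whole-genome library. No expected number of runs was computed for them. On X there were 60 runs with 13.3% of its 3112 listed CpGs, on unplaced contigs 106 runs with 39.6% of 1841, and on contigs placed only to a chromosome 12 runs with 14.5% of 642. The median of run medians was 16.2% on X, 22.8% on unplaced contigs and 12.5% on the contigs placed only to a chromosome.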

How the results depend on the processing

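Of 41 alternative values, 9 stayed within the interval of the value given (for the number of runs, within 1.5 times) and 32 moved further. Counts, shares and SDs cannot change sign. Only the difference between run and isolated CpGs could, and it stayed positive in each setting. The number of runs was 3240 with a join distance of 50 bp, 18937 with at least 3 CpGs, 943 with at least 10 and 3460 when CpGs at 0 were removed first. The median within-run SD was 9.97 points at 50 bp, 8.63 with at least 3 and 12.3 with at least 10 CpGs, 9.98 on uncorrected levels, 9.27 without CpGs at 0 and 10.01 without chromosome 1. The share of runs with a second-library site was 46.0% at 50 bp, 59.9% at 200 bp, 35.2% with at least 3 and 69.5% with at least 10 CpGs, 48.4% without windows of 10 or more second-library sites, 60.3% within 100 bp of the run, 38.4% for p of 0.001 or less, 38.3% for the plus strand only and 55.6% without chromosome 1. For Tdg shRNA it was 5.63% without those windows, 9.33% with at least 10 CpGs and 9.69% within 100 bp, and for control shRNA 7.53%, 10.1% and 12.4%. The difference between run and isolated CpGs was 9.43 points on either strand, 7.34 without CpGs at 0, 4.01 for levels of 10% to 30%, 2.38 without those windows, and, in settings added after the data were seen, 2.23 without stepped runs, 3.66 for levels below 50% and 6.21 without chromosome 1. The cause of these shifts was not tested, and many of the settings themselves add or remove CpGs. No paired analysis was possible because the shRNA groups have 1 library each, with no replicate number in their titles, so that no groups share 2 numbers. Leaving out a replicate was not run: the runs come from 1 library, and the 2 wild-type libraries carry different units. Depth is unknown for the library that defines the runs.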

Other observations

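Runs were uneven along the autosomes. The 1815 windows of 1 Mb that held a run had a median of 2. The densest held 22 runs each, at chr8:73000001-74000000 and chr9:3000001-4000000 (mm9). In the window on chromosome 9 all 22 runs held a second-library site and the median of run medians was 0%, and in that on chromosome 8 it was 17 of 22 runs and 7.68%. The neighbouring window of chromosome 8 from 72000001 held 21 runs, and chromosome 10 from 80000001 to 81000000 held 19. On chromosome 1 from 4000001 to 5000000 there were 15 runs with a median of run medians of 19.7%, of which 1 held a second-library site. These windows were chosen by the number of runs and after the values had been seen.

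At plus-strand CpGs with recovered reads the median converted share was 26.7% in runs (n = 2265) and 27.3% at isolated CpGs (n = 1862). The uncorrected level of the same CpGs in the first library was 18.5% in runs and 15.7% at isolated CpGs. Spearman's rho between the libraries across these CpGs was 0.13 in runs and 0.26 at isolated CpGs, with the strongest sites left out in both.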
